A study of Mus musculus with 8 samples.

Results

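Cullin-RING ligases attach ubiquitin to proteins and so mark many of them for destruction by the proteasome. A cullin is the scaffold: one end holds a RING protein that brings the ubiquitin-conjugating enzyme, and the other end holds an adaptor that picks the substrate. CUL3 takes its adaptors from the BTB proteins, which include the BTB-kelch proteins (KLHL, KBTBD and KEAP1) and many KCTD proteins, while kelch proteins of the KLHDC group include substrate receptors for CUL2. In the mouse testis the best known member is KLHL10, a CUL3 adaptor of spermatids without which male mice are infertile.

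The genes described here are all rows of a gene table whose symbols begin with Klhl, Kbtbd, Cul or Kctd followed by their numbers, or with Klhdc, together with Keap1 and without Kctd19, which was left out by rule. There were 77 such rows of 17121, and all 77 were among the 17066 genes tested. They comprised 8 cullins, 40 BTB-kelch genes, 19 Kctd genes, 9 Klhdc genes and Kbtbd8os, an antisense transcript that codes for no protein. RNA-seq had been made from mouse testis in 4 libraries with the genotype label N6amt1-SKO (SKO) and 4 with the label CTL, in a series that asks how N6AMT1 acts in sperm formation. N6AMT1 is a methyltransferase that modifies a translation termination factor. The labels give no age, strain or treatment, do not spell out SKO or name a Cre driver, and do not state whether each library is a separate animal. The p-values therefore cover the spread among these 8 libraries and nothing wider, and that spread may be technical.

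Several facts about the libraries bear on all results. The deposited values were reads multiplied by a factor per library, with about 40.6 to 65.6 M reads behind the SKO libraries and 57.4 to 258 M behind the CTL libraries (M, 10 to the power of 6). The 258 M of CTL 1 and 225 M of CTL 2 come from factors below 1, rest on a weaker signal and are less sure. Ribosomal 18S RNA took 0.969% of the values in SKO 4 and 0.731% and 0.721% in CTL 3 and CTL 4, against 0.173% to 0.273% in SKO 1 to 3 and CTL 1 and 2. Normalised values below are the deposited ones divided by TMM factors, and fold changes are differences of mean log2(normalised value + 5). Results are also given within the lower 18S set (SKO 1 to 3, CTL 1 and 2) and the higher 18S set (SKO 4, CTL 3 and 4). N6amt1 itself averaged 582 ± 31.1 in SKO and 512.8 ± 84.6 in CTL libraries (SD, n = 4 each; limma adjusted p = 0.437), which does not check the genotype labels, since the targeted part of the gene is not named in them. The protocol text mentions heart ventricles, but 12 genes of pachytene and later spermatocytes summed to 657249 to 763566 in SKO and 957637 to 1133922 in CTL libraries, while the 7 heart muscle genes tested of 11 listed summed to 4475 to 6949 in SKO and 2308 to 2938 in CTL libraries, with Actc1, Myl2, Nppa and Nppb not among the genes tested. None of the tested genes of these lists was at 0.

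The makeup of the tissue RNA differed between the groups. Of 20 Sertoli cell markers 14 were higher in SKO libraries, with summed values of 246177 to 462873 in SKO and 130583 to 242687 in CTL libraries and a median log2 fold change of 1.01. Of the 12 pachytene and later spermatocyte genes 5 were lower, with a median of -0.50. Peritubular myoid markers (4 of 7) and spermatogonial genes (5 of 11) were in part higher too, with medians of 0.58 and 0.60. So were 3 of 11 leptotene and zygotene genes (27.3%). Over all genes tested, 11.9% were called higher and 7.93% lower. Macrophage markers (1 of 10 higher, 10%), endothelial markers (1 of 8 higher, 12.5%) and round spermatid genes (1 of 11 lower, 9.09%) were near those shares. Of 10 Leydig cell markers 2 were higher (20%), and the 10 ran from -1.17 to 1.04 in log2 fold change. Of the 7 heart muscle genes tested 2 were higher. Of 11 elongating spermatid genes 0 were called by limma, and 0 had an unadjusted p below 0.05. Their median was -1.22 in the lower and 0.65 in the higher 18S set. Round spermatid medians were -0.85 and 0.02, and those of the pachytene and later genes -0.63 and -0.27. In the lower set 11 of 12 pachytene and later, 3 of 11 round and 1 of 11 elongating spermatid genes were called lower by limma, against 13.4% of all genes. In whole tissue, fewer cells of a type and less RNA per cell cannot be told apart, and the part of this makeup in the results below was not tested.

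The 77 genes were called about as often as all genes tested. At an adjusted p below 0.05 (limma, Benjamini-Hochberg over all genes tested), 8 were higher in SKO libraries (10.4% of them, against 11.9% of all genes tested) and 6 were lower (7.79%, against 7.93% of all genes). Together that was 18.2%, close to the 19.9% of all genes called in either direction. Their median log2 fold change, SKO over CTL, was 0.02, against 0.04 over all genes, and 39 of the 77 had the higher mean in SKO libraries. The 4 SKO values all lay above the 4 CTL values for 11 members (14.3%, against 15.6% of all genes) and all below them for 8 (10.4%, against 10.6% of all genes). These shares are near the background in both directions, so the results below describe single members and not the group.

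The 8 higher members were Kctd6, Kctd15, Kctd14, Klhl26, Klhl29, Klhl5, Kbtbd2 and Klhdc8b, and the 6 lower members were Cul3, Keap1, Klhl8, Klhl17, Klhl32 and Kctd9. By family, 1 of 8 cullins was called and it was lower (12.5%), and 4 of 40 BTB-kelch genes were higher (10%) and 4 lower (10%). Of 19 Kctd genes 3 were higher (15.8%) and 1 lower (5.26%), and 1 of 9 Klhdc genes was higher (11.1%). The shares of all genes were 11.9% higher and 7.93% lower, and families this small were not tested against them. The median log2 fold changes were -0.21 for cullins, -0.08 for BTB-kelch genes, 0.25 for Kctd genes and 0.08 for Klhdc genes. Scaling by column totals, which moves the median of all genes to 0.33, turns the cullin and BTB-kelch medians to 0.08 and 0.21, and median-ratio and upper quartile factors keep all 4 signs. Measured from the median of all genes, the cullin median lay between -0.24 and -0.25 and the Kctd median at 0.21 under all 4 scalings. A change of scaling moves all genes by nearly the same amount, so this agreement was fixed in advance and is no separate support. The groups of all 14 called members did not overlap, which fixes their sign in any subset of the libraries, apart from scaling factors estimated anew there. Without SKO 3 no gene of the table passed the limma threshold (its smallest adjusted p was 0.0569; 4784 genes, 21 of them members, had an unadjusted p below 0.05), and without SKO 1, SKO 2, CTL 2 or CTL 3 only 3, 5, 9 and 5 of the 14 calls remained.

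**Figure D1:**
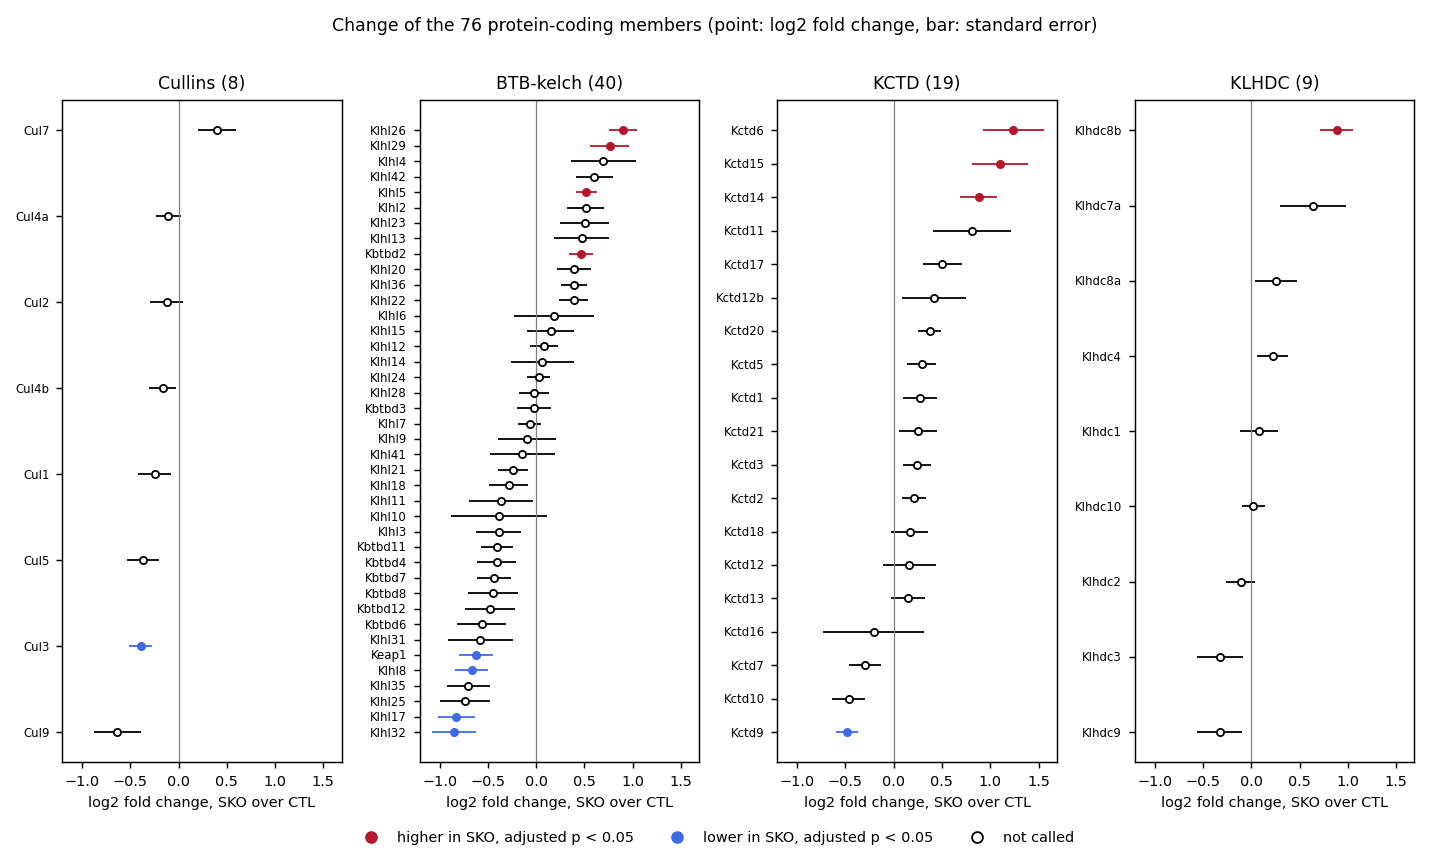
Log2 fold changes, SKO over CTL, of the 76 protein-coding members by family, with points for estimates and bars for standard errors; filled points passed an adjusted p of 0.05. Both directions occur among BTB-kelch genes. Most Kctd genes lie to the right of 0, with 3 called higher (15.8%, against 11.9% of all genes) and 1 lower (5.26%, against 7.93%).

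Promoter sequences are shown for 4 members on which the results turn: the CUL3 scaffold and its adaptor gene Keap1, which were lower, and Kctd6 and Klhl26, which were higher. Each is the stretch just before the first listed start in RefSeq on GRCm38.p6, read 5′ to 3′ on the gene's strand, with bases left out that GENCODE M21 places in an exon or that lie inside the RefSeq gene, so that the Keap1 and Klhl26 stretches end 29 and 44 bases before that start. The first listed start of Klhl26 lies inside the gene as RefSeq bounds it. Capitals mark letters matched on either strand by one of 4 motifs. GGGCGG is the GC box bound by SP factors and CCAAT is the box bound by NF-Y. TGACGT is the short form of the cyclic AMP response element, known from the CREM targets of spermatids, and TGACNNNGC is the core of the antioxidant response element that NRF2 binds.
Cul3, chr1:80340691-80340940, minus strand: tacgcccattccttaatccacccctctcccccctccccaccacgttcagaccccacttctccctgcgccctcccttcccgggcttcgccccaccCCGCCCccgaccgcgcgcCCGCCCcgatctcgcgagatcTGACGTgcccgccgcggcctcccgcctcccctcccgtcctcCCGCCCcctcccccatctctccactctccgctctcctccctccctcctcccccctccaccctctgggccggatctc
Keap1, chr9:21239362-21239582, minus strand: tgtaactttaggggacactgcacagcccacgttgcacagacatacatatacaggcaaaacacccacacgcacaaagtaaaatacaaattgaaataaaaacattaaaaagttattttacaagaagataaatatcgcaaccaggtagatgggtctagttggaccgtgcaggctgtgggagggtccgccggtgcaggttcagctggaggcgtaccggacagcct
Kctd6, chr14:8213831-8214080, plus strand: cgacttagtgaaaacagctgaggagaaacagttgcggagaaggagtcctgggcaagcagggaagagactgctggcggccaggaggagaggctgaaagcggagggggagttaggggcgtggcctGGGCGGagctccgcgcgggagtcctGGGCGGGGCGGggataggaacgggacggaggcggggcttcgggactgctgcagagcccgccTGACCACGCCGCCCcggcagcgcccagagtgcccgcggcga
Klhl26, chr8:70476990-70477195, minus strand: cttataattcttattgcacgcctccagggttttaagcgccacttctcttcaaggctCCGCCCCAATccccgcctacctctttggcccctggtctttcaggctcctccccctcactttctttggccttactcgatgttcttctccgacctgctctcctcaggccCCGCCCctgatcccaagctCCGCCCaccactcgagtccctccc

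The GC box matched 3 times in the Cul3 stretch, 4 times in Kctd6 and 3 times in Klhl26, and no searched motif matched in Keap1. In Kctd6 a pair of GC boxes overlap each other, and another overlaps by its first letter the single match of the antioxidant core. In Klhl26 the CCAAT match shares a letter with a GC box, and Cul3 holds 1 match of the short cyclic AMP element. Over the 250 bases before the start of 32851 promoters in the RefSeq table, the GC box occurred in 32.7%, the CCAAT box in 33.8%, the short cyclic AMP element in 6.47% and the antioxidant core in 10.2%. These matches describe letters only.

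Cul3 (GRCm38, chromosome 1, 80264923 to 80340690) was the most abundant cullin per length and the only cullin called, lower in SKO libraries. Its normalised values were 37602, 39261, 39231 and 39896 in SKO 1 to 4 and 47047, 52134, 49270 and 57031 in CTL 1 to 4. Each SKO library lay below each CTL library, and the SKO values were tight. The means were 38997 ± 979.3 in SKO and 51370 ± 4310 in CTL (SD, n = 4 each), 1.31-fold lower in SKO libraries (log2 fold change -0.39, SE 0.12, limma adjusted p = 0.047). The change was as large within the 18S sets, at -0.36 in the lower and -0.39 in the higher set. The call sits near the threshold: of the 8 fits that left out a library it held only without CTL 1, and the adjusted p reached 0.126, without SKO 3. It was also lost with upper quartile factors (limma adjusted p = 0.0666) and with a single prior variance (limma adjusted p = 0.0581). The call was lost as well with replicate number as a term (limma adjusted p = 0.0656) and with column totals (limma adjusted p = 0.546). With column totals the log2 fold change was -0.10, which is -0.43 from the median of all genes under that scaling and -0.44 under the main one. These 2 distances are close by construction, since scaling moves all genes nearly alike.

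The other 7 cullins did not pass the test. Per kilobase of exon, mean levels in SKO and CTL libraries were 8003 and 10542 for Cul3, 4666 and 5618 for Cul1, 3373 and 3784 for Cul4b, 2535 and 2717 for Cul4a, 1244 and 1385 for Cul2, 1156 and 1503 for Cul5, 648.5 and 1049 for Cul9, and 499.8 and 379 for Cul7. Differences between neighbours in this order were not tested. Cul3 made up 32.8% to 35.7% of the summed cullin values in SKO and 33.6% to 40% in CTL libraries, shares that overlap. The summed cullin values ran from 105247 to 119552 in SKO and from 120579 to 161782 in CTL libraries.

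Cul1, the scaffold of the SCF ligases, had 17269, 19037, 17652 and 21452 in SKO 1 to 4 and 18964, 18785, 24174 and 28869 in CTL 1 to 4. SKO 2 and SKO 4 lay above CTL 1 and CTL 2, so the groups overlap (log2 fold change -0.25, SE 0.17, limma adjusted p = 0.311). Cul5, which like Cul2 reaches its substrates through elongins, had 8288, 9534, 8916 and 11010 in SKO 1 to 4 and 10301, 10629, 13127 and 15019 in CTL 1 to 4. Only SKO 4 reached into the CTL range (log2 fold change -0.37, SE 0.16, limma adjusted p = 0.127). Cul2 (-0.12, SE 0.17), Cul4a (-0.11, SE 0.13) and the X-linked Cul4b (-0.16, SE 0.14) overlapped broadly, with limma adjusted p-values of 0.647, 0.602 and 0.427. The log2 fold changes of Cul1, Cul2, Cul4a and Cul4b were above 0 with column totals, and those of Cul2 and Cul4a also in the lower 18S set.

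The values of both atypical large cullins differed between the library sets. Cul9, a cytoplasmic partner of p53, had 6827, 8868, 8786 and 7161 in SKO 1 to 4 and 9029, 8967, 17549 and 15615 in CTL 1 to 4. The groups did not overlap, but CTL 1 and CTL 2 lay barely above SKO 2 and SKO 3 (log2 fold change -0.64, SE 0.24, limma adjusted p = 0.0868). It was -0.15 in the lower and -1.19 in the higher 18S set. Cul9 was the single member called in the higher set, where 1 SKO library is assumed to vary like the 2 CTL libraries it is set against. Cul7, the scaffold of the 3M complex, had 3155, 4529, 4187 and 2943 in SKO 1 to 4 and 2233, 2508, 3494 and 2998 in CTL 1 to 4. SKO 2 and SKO 3 were the high libraries and SKO 4 lay below CTL 3 and CTL 4 (log2 fold change 0.40, SE 0.20, limma adjusted p = 0.173). It was 0.72 in the lower set (limma adjusted p = 0.0261) and -0.12 in the higher set.

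**Figure D2:**
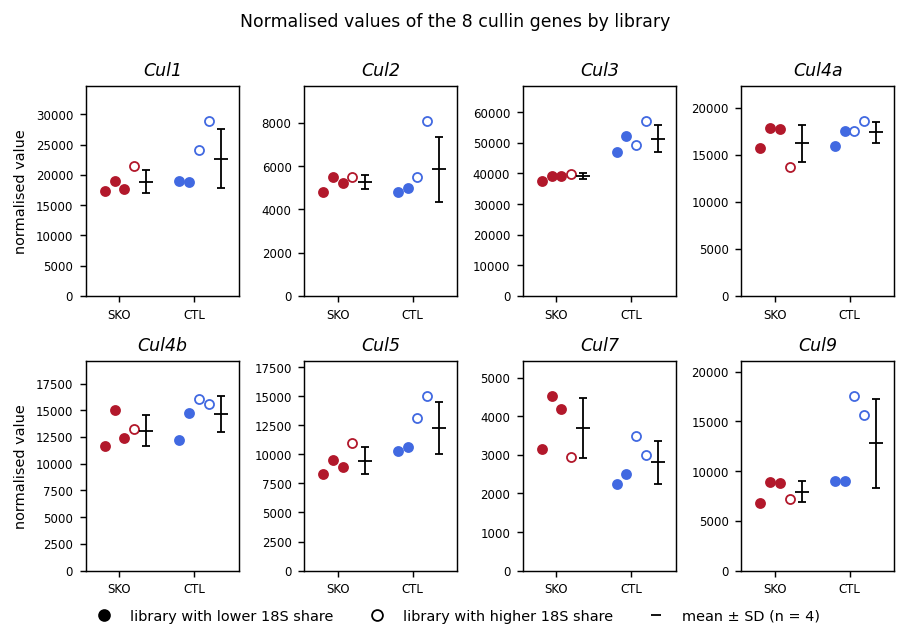
Normalised values of the 8 cullin genes in each library, SKO left and CTL right, with filled points for the lower and open points for the higher 18S set and bars for the mean ± SD (n = 4). Cul3 and Cul9 have groups that do not overlap, and the open CTL points of Cul9 stand at 17549 and 15615 above the rest.

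Among the CUL3 adaptors, Keap1 was lower in SKO libraries. KEAP1 holds the transcription factor NRF2 (Nfe2l2) for ubiquitination by CUL3 until oxidants or electrophiles modify it. Keap1 (chromosome 9, 21229730 to 21239332) had 4808, 4808, 6060 and 5669 in SKO 1 to 4 and 6961, 6657, 10577 and 9061 in CTL 1 to 4. All SKO values lay below all CTL values, with CTL 3 and CTL 4 the highest. The means were 5336 ± 630.3 in SKO and 8314 ± 1849 in CTL (SD, n = 4 each), 1.54-fold lower in SKO libraries (log2 fold change -0.62, SE 0.18, limma adjusted p = 0.0372). Within the sets it was -0.39 in the lower (limma adjusted p = 0.0627, no call) and -0.77 in the higher 18S set. A transcript on the other strand, Gm16754, shares 10.9% of its exon bases, and the kit keeps no strand.

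The gene of its partner moved the other way. Nfe2l2 had 4465, 4974, 4281 and 3794 in SKO 1 to 4 and 2539, 2533, 1878 and 2166 in CTL 1 to 4, groups far apart (log2 fold change 0.94, SE 0.15, limma adjusted p = 0.0123). Of 27 genes tested in a list of NRF2 and its known targets (Gsta1 was not among the genes tested), 12 were higher in SKO libraries, or 44.4% against 11.9% of all genes, and 0 were lower (limma; 17 higher and 0 lower at an unadjusted p below 0.05). Their median log2 fold change was 0.59, and 0.55 above the median of all genes under each of the 4 scalings. That distance hardly depends on the scaling, which moves all genes nearly alike, so its agreement is no separate support. The higher genes took in glutathione transferases (Gsta2, Gsta4 at 1.02, Gstm1), the pentose phosphate enzymes G6pdx at 0.85, Pgd at 0.59 and Taldo1 at 0.92, the antioxidant proteins Prdx1 and Txn1, the ferritin genes Ftl1 and Fth1, and the autophagy receptor Sqstm1. Several of the targets most often used to read NRF2 did not pass: Nqo1 was at 0.77 (limma adjusted p = 0.0957), Hmox1 at 0.83 (0.0747), Gclc at 0.16 (0.445), Gclm at 0.17 (0.359), Txnrd1 at 0.01 (0.969), Srxn1 at -0.43 (0.516) and Slc7a11 at -0.81 (0.182). Sertoli markers moved with these genes, with summed values of at least 246177 in SKO and at most 242687 in CTL libraries. Their part in the list's count was not tested. The count of 12 fell to 7 without SKO 1, SKO 2 or CTL 3 and to 0 without SKO 3 (limma; 16 higher at an unadjusted p below 0.05).

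**Figure D3:**
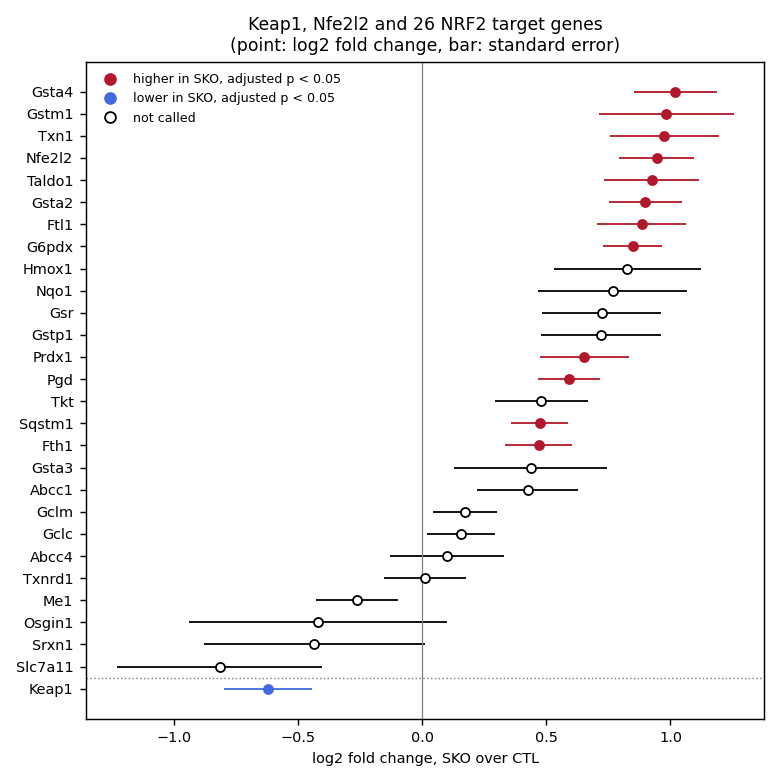
Log2 fold changes, SKO over CTL, of Keap1 and of 27 genes of the NRF2 list, with bars for standard errors and filled points for an adjusted p below 0.05. Nfe2l2 and 11 targets are filled on the right, Keap1 is filled on the left at -0.62, and Slc7a11 and Srxn1 lie left of 0 without a call.

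The other 3 lower BTB-kelch genes were Klhl8, Klhl17 and Klhl32. Klhl8 (chromosome 5, 103862050 to 103911259), whose protein is known to target the synaptic protein rapsyn, had 3129, 3736, 3535 and 4027 in SKO 1 to 4 and 4513, 5045, 6584 and 7096 in CTL 1 to 4. The groups did not overlap, and the means of 3607 ± 377.1 in SKO and 5809 ± 1227 in CTL (SD, n = 4 each) gave a log2 fold change of -0.67 (SE 0.17, limma adjusted p = 0.0279). Klhl32 (chromosome 4, 24612559 to 24851150) was a low gene, at 282, 338.7, 275.8 and 243 in SKO 1 to 4 and 400.5, 592.5, 427.7 and 688.9 in CTL 1 to 4. No SKO value reached a CTL value, and the log2 fold change was -0.85 (SE 0.22, limma adjusted p = 0.0297), the most negative of all members. In the lower 18S set it was -0.70 and not called (limma adjusted p = 0.0576).

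Klhl17 encodes actinfilin, an actin-binding protein known from neurons. It had 1311, 1638, 1563 and 1351 in SKO 1 to 4 and 2161, 2015, 3463 and 2994 in CTL 1 to 4. CTL 3 and CTL 4 stood highest, and the SKO values lay below all CTL values (log2 fold change -0.83, SE 0.20, limma adjusted p = 0.0218; -0.48 in the lower and -1.23 in the higher 18S set). RefSeq on GRCm38.p6 places it on chromosome 4, 156229044 to 156234857. GENCODE M21 has no gene of that name and lets Plekhn1 span the locus, and Noc2l overlaps its end, so its reads may be shared. Plekhn1 was lower too, at 1930 ± 308.7 in SKO and 3064 ± 236.5 in CTL (limma adjusted p = 0.0184), and Noc2l was higher, at 3151 ± 397 in SKO and 1675 ± 236.6 in CTL (SD, n = 4 each; limma adjusted p = 0.0123).

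Of the 4 higher BTB-kelch genes, Klhl26 (chromosome 8, 70450218 to 70476989) moved most. It had 1209, 1306, 1262 and 1040 in SKO 1 to 4 and 668.9, 584.2, 711.3 and 603.4 in CTL 1 to 4. The lowest SKO value stood well above the highest CTL value, and the means of 1204 ± 116.2 in SKO and 641.9 ± 58.8 in CTL (SD, n = 4 each) gave 1.87-fold higher values in SKO libraries (log2 fold change 0.90, SE 0.15, limma adjusted p = 0.0123). It was 1.00 in the lower and 0.68 in the higher 18S set and kept its call without any single library but SKO 3. Klhl29 (chromosome 12, 5077465 to 5375682) had 656.5, 673, 883.6 and 692.9 in SKO 1 to 4 and 446.3, 363.7, 352.7 and 563.5 in CTL 1 to 4. SKO 3 was its high library, and CTL 4 came closest to the SKO range (log2 fold change 0.76, SE 0.20, limma adjusted p = 0.0296).

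Klhl5 and Kbtbd2 were more abundant and changed less. Klhl5 (chromosome 5, 65107551 to 65168173) had 6370, 6175, 6760 and 6392 in SKO 1 to 4 and 4427, 4334, 4382 and 4791 in CTL 1 to 4. Both groups were narrow, and the log2 fold change of 0.52 (SE 0.11, limma adjusted p = 0.0169) was 0.55 in the lower and 0.50 in the higher 18S set. Kbtbd2 (chromosome 6, 56777525 to 56797813), which in mice is known to keep the PI3-kinase subunit p85-alpha low and so to maintain insulin signalling, had 3704, 3875, 3720 and 3362 in SKO 1 to 4 and 2793, 2692, 2320 and 2821 in CTL 1 to 4. SKO 4 was the lowest SKO library and still lay above all CTL libraries (log2 fold change 0.47, SE 0.12, limma adjusted p = 0.0314). It was 0.46 in the lower and 0.41 in the higher 18S set.

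KCTD proteins carry a BTB domain without a kelch repeat. Kctd6 (chromosome 14, 8214081 to 8223587), whose protein with CUL3 is known to direct the degradation of the deacetylase HDAC1 in Hedgehog signalling, had the largest change of all 77 members. It had 881, 868.7, 977 and 638.7 in SKO 1 to 4 and 579.5, 468.2, 213.3 and 255.5 in CTL 1 to 4. The groups did not overlap, but the libraries of the higher 18S set lay lower in both: SKO 4 was close to CTL 1. The means were 841.4 ± 143.5 in SKO and 379.1 ± 174 in CTL (SD, n = 4 each), 2.36-fold higher in SKO libraries (log2 fold change 1.24, SE 0.32, limma adjusted p = 0.0275; 0.79 in the lower and 1.45 in the higher 18S set). The other genes of the same KCASH group were not called: Kctd11 was at 0.81 (limma adjusted p = 0.171) and Kctd21 at 0.25 (limma adjusted p = 0.387).

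Kctd15 (chromosome 7, 34636999 to 34655509), which in zebrafish is known to restrain AP-2 in neural crest formation, followed the same layout. It had 745.4, 603.7, 597.1 and 589.5 in SKO 1 to 4 and 420.9, 423.2, 209.8 and 191.6 in CTL 1 to 4. SKO 1 stood above the other SKO libraries, and CTL 3 and CTL 4 stood far below CTL 1 and CTL 2. The means were 633.9 ± 74.5 in SKO and 311.4 ± 128 in CTL (SD, n = 4 each; log2 fold change 1.10, SE 0.29, limma adjusted p = 0.0294), with 0.61 in the lower and 1.55 in the higher 18S set. Kctd14 (chromosome 7, 97436380 to 97459557) had 3547, 4289, 4514 and 6009 in SKO 1 to 4 and 2051, 2237, 2948 and 2647 in CTL 1 to 4. SKO 4 was its highest library, and every SKO value lay above every CTL value (log2 fold change 0.88, SE 0.19, limma adjusted p = 0.0169; 0.93 and 1.12 in the lower and higher 18S sets).

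Kctd9 (chromosome 14, 67716086 to 67742310), whose protein is known to bind CUL3, was the Kctd gene called lower. It had 6706, 7203, 6761 and 6271 in SKO 1 to 4 and 9299, 8746, 9248 and 10465 in CTL 1 to 4. The groups were narrow and apart (6735 ± 381.2 in SKO, 9439 ± 728.1 in CTL, SD, n = 4 each; log2 fold change -0.49, SE 0.12, limma adjusted p = 0.0231). The RhoA adaptor genes Kctd10 and Kctd13 did not pass. Kctd10 had 3344, 4078, 4318 and 2782 in SKO 1 to 4 and 4531, 4870, 5817 and 4677 in CTL 1 to 4, without overlap (log2 fold change -0.47, SE 0.17, limma adjusted p = 0.0753). Myo1h on the other strand shares 37.9% of its exon bases. The values of Myo1h were low, at 166 in SKO and 123.3 in CTL on average (limma adjusted p = 0.341), and their part in those of Kctd10 was not tested. Kctd13, the most abundant Kctd gene per length, had 6695 to 8438 in SKO and 4805 to 7818 in CTL libraries, an overlap with no clear side (log2 fold change 0.15, SE 0.17, limma adjusted p = 0.575; -0.08 in the lower 18S set).

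Klhdc8b (chromosome 9, 108447635 to 108461581) was the called gene of the Klhdc group. Its protein is known as a midbody kelch protein in dividing human cells. It had 1811, 1658, 1845 and 1309 in SKO 1 to 4 and 936.3, 908.1, 1015 and 717.5 in CTL 1 to 4. SKO 4 and CTL 4 were the lowest of their groups, and the groups did not overlap (1655 ± 245.1 in SKO, 894.2 ± 126.2 in CTL, SD, n = 4 each; log2 fold change 0.88, SE 0.17, limma adjusted p = 0.0144). It was 0.93 in the lower and 0.63 in the higher 18S set. With Klhl26 and Kctd14 it kept its call in 7 of 8 fits that left out a library, more often than any other member. Of those 8 fits, Kctd9 and Klhl17 kept their calls in 5, and Klhl5, Klhl8 and Klhl32 in 4. Kctd6, Kctd15 and Keap1 kept theirs in only 3, Kbtbd2 and Klhl29 in 2 and Cul3 in 1.

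**Figure D4:**
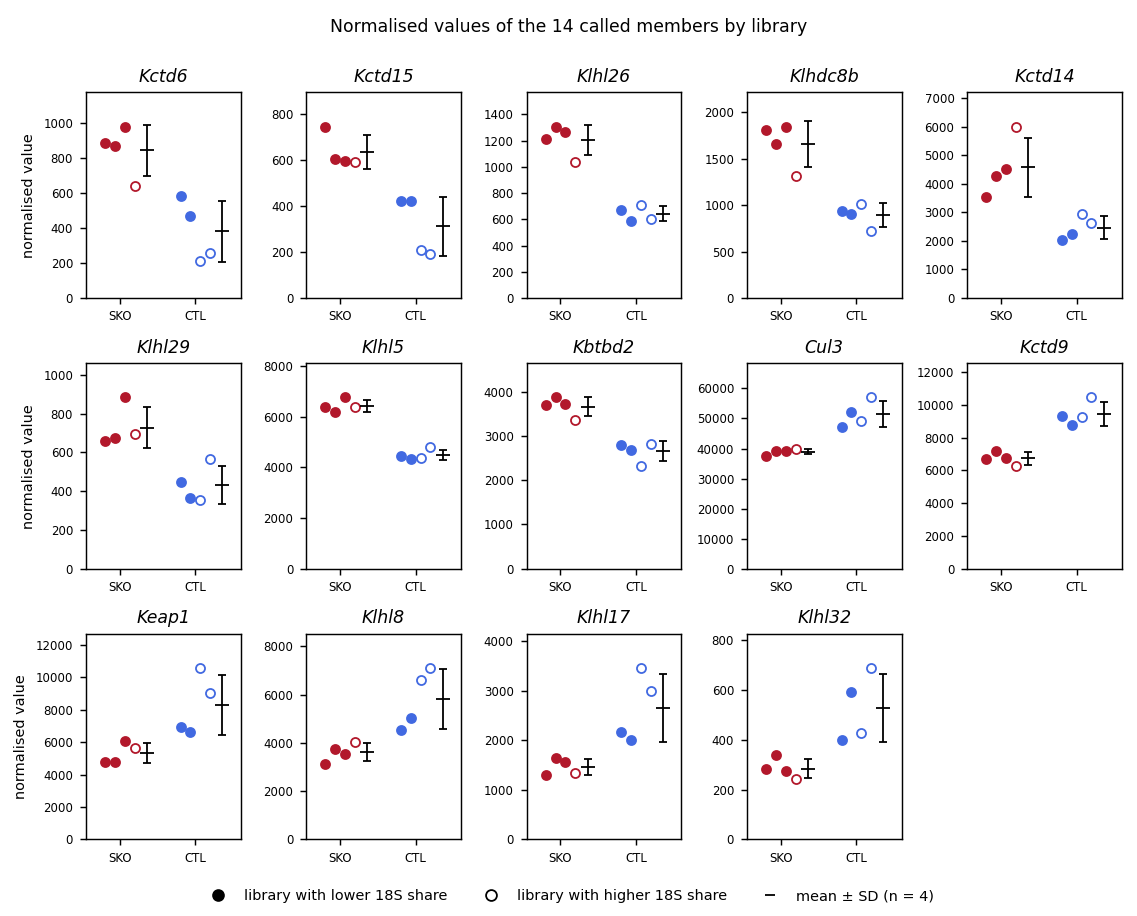
Normalised values of the 14 called members in each library, SKO left and CTL right, with filled points for the lower and open points for the higher 18S set and bars for the mean ± SD (n = 4). No panel shows overlap, and in Kctd6 and Kctd15 the open CTL points (213.3 and 255.5; 209.8 and 191.6) lie below the filled ones.

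Neither of the most abundant Klhdc genes per length was called. Klhdc3, the most abundant of all members per length and a substrate receptor of CUL2 in human cells, stood at 11075 per kilobase in SKO and 14248 in CTL libraries, with values of 34614, 27127, 29880 and 23245 in SKO 1 to 4 and 41871, 48577, 34695 and 22639 in CTL 1 to 4. CTL 4 was the lowest of all 8 (log2 fold change -0.32, SE 0.24, limma adjusted p = 0.354; -0.57 and called in the lower 18S set, limma adjusted p = 0.0263), and Mea1 shares 10.6% of its exon bases. Klhdc2, another CUL2 receptor, had 9531 to 11435 in SKO and 9323 to 13373 in CTL libraries (log2 fold change -0.11, SE 0.15, limma adjusted p = 0.636), and above 0 with column totals.

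Klhl10 was the most abundant BTB-kelch gene per length, at 5768 per kilobase in SKO and 8364 in CTL libraries. It had 19514, 13751, 9684 and 6912 in SKO 1 to 4 and 22081, 31883, 12288 and 6048 in CTL 1 to 4. Both groups spread widely and overlapped (log2 fold change -0.39, SE 0.50, limma adjusted p = 0.615). Within the sets Klhl10 was at -0.95 in the lower (limma adjusted p = 0.0504, no call) and -0.30 in the higher 18S set. Elongating spermatid markers summed to 588804, 172469, 167940 and 153717 in SKO 1 to 4 and to 564679, 695268, 238238 and 80340 in CTL 1 to 4, so SKO 1, CTL 1 and CTL 2 were the high libraries for both. Klhl10 made up 16.1%, 10.4%, 7.32% and 5.71% of the summed BTB-kelch values in SKO 1 to 4 and 17.2%, 23%, 8.05% and 3.91% in CTL 1 to 4.

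Klhl25, Kbtbd6 and Kbtbd7, the next Klhl gene after Klhl10 and the leading Kbtbd genes by mean level per length over all libraries, had lower means in SKO libraries without a call. Other abundant BTB-kelch genes had higher means there, such as Klhl23 at 2050 per kilobase in SKO and 1425 in CTL libraries (log2 fold change 0.50, limma adjusted p = 0.18). Klhl25, an adaptor for the translation repressor 4E-BP1, had 5610, 5589, 6709 and 8812 in SKO 1 to 4 and 8253, 7878, 14659 and 15162 in CTL 1 to 4, with SKO 4 inside the CTL range (log2 fold change -0.74, SE 0.26, limma adjusted p = 0.0687; -0.44 and called in the lower 18S set, limma adjusted p = 0.0359). Kbtbd6 and Kbtbd7, which in human cells act together on the Rac activator TIAM1, were at -0.57 (SE 0.26, limma adjusted p = 0.141) and -0.44 (SE 0.18, limma adjusted p = 0.103). Their values were 3473 to 7061 in SKO and 5526 to 10271 in CTL for Kbtbd6, and 3207 to 4553 in SKO and 4323 to 6084 in CTL for Kbtbd7.

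The 63 members without a call ran from -0.74 to 0.81 in log2 fold change, and 19 lay within 0.2 of 0. The lowest adjusted p among them was 0.0529. Of these, Cul9 and Kctd10 had all SKO values below all CTL values, and Kctd20, Klhl2 and Klhl42 had all above. The 5 X-linked members (Cul4b, Kctd12b, Klhl13, Klhl15 and Klhl4) ranged from -0.16 to 0.70 with a median of 0.42 and a lowest adjusted p of 0.162. Levels ranged from 10.8 to 11075 per kilobase in SKO and 17.1 to 14248 in CTL libraries over the 76 members with an exon length, with medians of 454.8 and 502.5. The member at the low end of both was Klhl31. 9 members had fewer than 100 reads in at least 1 library, and the lowest library of any called member had 94 reads.

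The 18S sets changed which members passed. In the lower set alone 17 members were higher (18.8% of all genes were) and 9 lower (13.4% of all genes were). 9 of the higher ones were not called over all libraries: Klhl36, Klhl20, Klhl15, Kctd20, Cul7, Klhl42, Klhl23, Kctd11 and Klhdc7a. 5 of the lower ones were likewise added: Kbtbd8os, Klhl35, Klhl41, Klhdc3 and Klhl25. Keap1 and Klhl32 were not called there. In the higher set, with 1 SKO library, 0 members were called higher and 1 lower by limma (3 higher and 10 lower at an unadjusted p below 0.05). With the set as a term in the fit over all 8 libraries, all 14 calls held and 10 members were higher and 10 lower. The sets also differed inside the CTL group: CTL 3 and CTL 4 both lay above CTL 1 and CTL 2 for 33 members (42.9%, against 33.5% of all genes) and both below for 17 (22.1%, against 33.7%).

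**Figure D5:**
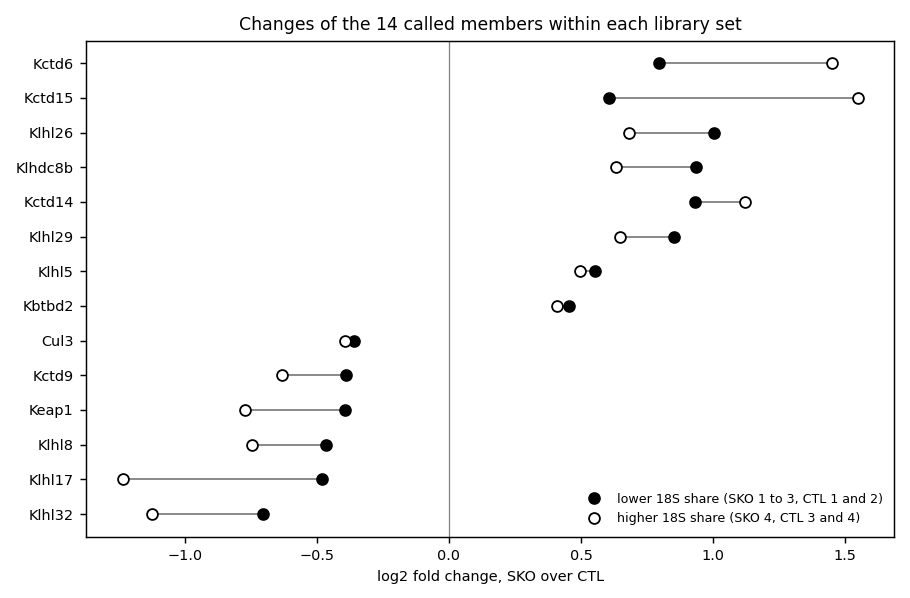
Log2 fold changes, SKO over CTL, of the 14 called members within the lower 18S set (filled; SKO 1 to 3, CTL 1 and 2) and the higher 18S set (open; SKO 4, CTL 3 and 4). Both points of a gene lie on the same side of 0, which non-overlapping groups fix apart from scaling factors estimated anew in each set. Cul3, Klhl5 and Kbtbd2 have nearly the same change in both, and Kctd15 (0.61 and 1.55) and Klhl17 (-0.48 and -1.23) are far apart.

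The rest of the cullin cycle was read from 50 tested genes of a list of RING subunits, linkers, NEDD8 enzymes, COP9 subunits, exchange factors and other BTB partners of CUL3. Of these 4 were higher and 4 lower in SKO libraries, 16% in all against 19.9% of all genes, with a median log2 fold change of -0.03. Leaving out 1 library at a time, with SKO 3 as above, left 0 to 6 higher and 0 to 4 lower: only 1 was higher without SKO 1, SKO 2, CTL 1, CTL 2 or CTL 3, and at most 2 were lower without SKO 1, SKO 2, SKO 4 or CTL 3. The RING subunit Rbx1 was at 0.45 (limma adjusted p = 0.0455), the NEDD8-activating subunit Uba3 at 0.48 (0.038), the NEDD8 ligase gene Dcun1d2 at 0.55 (0.023) and the BTB protein gene Rcbtb1 at 0.82 (0.0123). Lower genes were Dcun1d4 at -0.53 (0.0254), the COP9 subunit genes Cops4 at -0.47 (0.0232) and Cops7a at -0.39 (0.0439), and Rhobtb1 at -0.53 (0.0475). The COP9 signalosome removes NEDD8 from cullins. Of 11 tested genes of NEDD8 removal, only Cops4 and Cops7a were called, both lower (18.2%, against 7.93% of all genes). The other 9 did not pass, so these are results of single genes and not of the step. Rbx1, the shared RING subunit, had 4829 to 5746 in SKO and 3566 to 4508 in CTL libraries, the opposite side from Cul3. In the lower 18S set Rbx1 (0.27, limma adjusted p = 0.125), Dcun1d4 (-0.40, 0.0553) and Rhobtb1 (-0.31, 0.0787) were not called. Uba3, Dcun1d2, Rcbtb1, Cops4 and Cops7a kept their calls there. Cand1, which exchanges adaptors on cullins, had 39522, 55024, 49724 and 50016 in SKO 1 to 4 and 59108, 60857, 103963 and 105970 in CTL 1 to 4, all SKO values being below all CTL values without a call (log2 fold change -0.72, limma adjusted p = 0.0539).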

How the data were processed

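Testis RNA from 4 N6amt1-SKO and 4 CTL libraries was sequenced from libraries of a kit without strand marking (NEBNext Ultra RNA), per the labels' protocols. The submitters' processing notes list build mm10, featureCounts 1.5.0-p3, HISAT2 2.0.5, fastp and CASAVA. The deposited values are a score: the authors scaled each library's read counts by its own factor and rounded them, as the values show (98.9% to 99.7% of low values equalled a rounded whole multiple of it in the 6 libraries with a factor above 1). The factors of CTL 1 and CTL 2 lie below 1 and rest on a weaker signal. How the factors were chosen is not stated.

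Since the values are not raw counts, no count model was run. A gene was tested if 4 or more libraries had a value of 25 or higher. TMM factors (trims of 30% and 5%) scaled the values, and log2(value + 5) was modelled in R 4.3.3 by limma 3.58.1, using a variance prior that follows the mean, no covariate, two-sided tests and Benjamini-Hochberg adjustment over 17066 genes. Fold changes on this scale understate those of low genes. Levels per kilobase use GENCODE M21 exon lengths, which 76 members had, and coordinates and promoters come from RefSeq GRCm38.p6, which matched 77. No libraries were duplicates (lowest chi-square per gene 47.9). The reads behind a member's value in a library were 19 to 117340.

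Members and gene lists were chosen with earlier results of these data known, and the filter, constant and the 18S limit of 0.5% after values had been seen. The text names every cullin, every called member, Keap1, Klhl10, Kctd10, Kctd13 and the 2 most abundant members per length among the symbols starting with Klhl, Kbtbd, Klhdc and Kctd, 29 genes in all, while other members are named only where a short count is spelled out. Alternatives were other scalings, constants, filters, variance priors, library sets, a replicate block and leaving out each library.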

Additional observations from a re-analysis of the deposited data

Results flagged for a closer look

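2 of the 58 groups of 4 libraries examined among the named members held a library far from the others, where chance gives about 1 in 20. In SKO libraries, Kctd15 had its highest value in SKO 1, at 745.4, while the other 3 lay between 589.5 and 603.7. Klhl29 had its highest SKO value in SKO 3, at 883.6, while the other 3 lay between 656.5 and 692.9. The highest CTL values were 423.2 for Kctd15 and 563.5 for Klhl29.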

How the results depend on the processing

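Over 29 named genes and 551 comparisons with an alternative, 447 kept direction and side of the threshold, 80 lost the call, 13 gained one and 11 changed sign. No called member changed sign in 266 comparisons. For fits on fewer libraries, non-overlapping groups fix this apart from scaling factors estimated anew. The count of higher and lower genes (2038 and 1354) became 4885 and 456 with column totals, 3194 and 2283 in the lower 18S set and 43 and 252 in the higher one, and 2210 were lower with the set as a term. Members (8 higher, 6 lower) became 22 and 1 with column totals, 17 higher in the lower set, 0 and 1 in the higher set (limma; 3 and 10 at an unadjusted p below 0.05), and 10 lower with the set as a term. Higher genes made up 60.1% of calls with TMM, 91.5% with column totals, 49.2% with median-ratio and 67.4% with upper quartile factors, and 57.1%, 95.7%, 53.3% and 68.8% of member calls. Machinery genes (4 and 4) became 2 higher with median-ratio factors, 11 and 0 with column totals (limma; 14 and 0 at an unadjusted p below 0.05), 2 lower with upper quartile factors, 2 higher with the replicate block, 9 lower with the set as a term, 7 and 8 in the lower set, 0 and 2 in the higher set and 2 and 2 with a single prior variance. NRF2 genes (12 higher) became 20 with column totals and 0 in the higher set (limma; 8 at an unadjusted p below 0.05). The cause of these shifts was not tested, apart from column totals moving the median of all genes to 0.33.

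Leaving out 1 library gave 0 to 2455 higher and 0 to 1526 lower genes, 0 to 13 and 0 to 7 members, 0 to 6 and 0 to 4 machinery genes and 0 to 16 higher NRF2 genes. The 0 counts of genes come from leaving out SKO 3. Changes of sign were 0.042 for Cul1, 0.17 for Cul2, 0.18 for Cul4a, 0.13 for Cul4b and 0.18 for Klhdc2 with column totals, 0.072 for Cul2, 0.027 for Cul4a and -0.079 for Kctd13 in the lower set, and -0.12 for Cul7 in the higher set. Over fits without 1 library Cul2 ran from -0.25 to 0.0095 and Kctd13 from -0.036 to 0.19, the changed signs coming without CTL 4. The replicate block called 8 members higher and 8 lower, with 13 of the 14 calls kept and that of Cul3 lost (limma adjusted p = 0.0656). Same-number libraries deviated together with correlations of 0.67, 0.01, 0.08 and 0.23, and 1 of 4 CTL libraries matched its own number best. These correlations do not settle whether same-number samples were paired, and the labels state no pairing.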
